A study of Mus musculus with 10 samples.

Results

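The genes described here make, sense and move sterols and make fatty acids. They were a given list of 34 genes, grouped by role into the mevalonate pathway, the steps from squalene to cholesterol, sterol sensing and transport, sterol efflux, fatty acid synthesis, and desaturation and elongation of fatty acids. A gene's level is that of its probe set (a group of probes for 1 transcript) with the highest mean over all arrays, among those annotated to 1 gene. The annotation named 33 of the 34, all but Acat2, which was not analysed here. Scd1, a fatty acid desaturase, lay below the median of every array with both of its probe sets and was dropped. The other 32 are described, of 11939 genes kept in all, and 30 of them were at or above the median on each of the 10 arrays. Fads1 and Fads2 were not.

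Cholesterol is built from acetyl units. The mevalonate pathway joins and reduces them into isoprenoid units, squalene synthase links these into squalene, and a chain of microsomal enzymes folds squalene into lanosterol and trims it to cholesterol. The transcription factors SREBP2 (Srebf2) and SREBP1 (Srebf1) drive most of these genes and those of fatty acid synthesis. They are carried to the Golgi by SCAP for cleavage when sterols are low, and INSIG proteins hold SCAP back when sterols are high. Oxysterols act through the LXR receptors on the exporters ABCA1 and ABCG1. In mouse T cells, activation raises sterol and fatty acid synthesis and lowers sterol export as cells grow and divide, and mevalonate metabolism is known to matter for regulatory T cells.

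The study read RNA of mouse CD4 T cells with 10 Affymetrix arrays, 1 for each of 10 groups, so no group had a replicate. All mice were females of 6 to 8 weeks, and cells were sorted from pooled lymph node and spleen. GFPko cells were GFP-positive cells from Foxp3 gfpko/wt mice (backcross 5 from 129/Sv to C57BL/6), in which the locus makes green fluorescent protein (GFP) in place of Foxp3, the transcription factor of regulatory T cells. Foxp3 is X-linked, so other cells of these females still make Foxp3. GFPfoxp3 cells were GFP-positive cells from Foxp3 gfp/gfp mice (backcross 8 to 10), which make a fusion of GFP and Foxp3. CD25pos and CD25neg cells were GFP-negative cells of the gfp/gfp line with and without CD25, the IL-2 receptor alpha chain. A second array of GFPko, GFPfoxp3 and CD25pos cells followed IL-2 treatment of the mice, with 4 injections of 50 ng per g within 24 h and isolation 30 min after the last. The remaining 3 arrays held CD25+CD4+ cells of C57BL/6 mice, stimulated in culture with 100 ng/ml each of anti-CD3 and anti-CD28 and 100 U/ml IL-2. They were transduced with the GFP-carrying retroviral vector MigR1 holding PDE3B with the substitution H801A (MigR1_PDE3B_H801A), PDE3B, a phosphodiesterase that degrades cAMP (MigR1_PDE3B), or no insert (MigR1_empty). They were transferred, mixed with CD25-CD4+ cells of B6.SJL mice that carried the same vector, into TCRalpha-deficient recipients and sorted 3 weeks later as GFP+ GITR+ CD4+ Ly5.1- cells. The labels do not say how many animals an array holds, or whether untreated mice received vehicle.

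Values are log2 levels, and a difference of 1 is a 2-fold difference. The level of 1 probe set says nothing about that of another, so levels are compared between arrays and not between genes. In bulk samples fewer cells of a type and less RNA per cell cannot be told apart. All 6 CD4 T cell markers were above the median of each array, and Foxp3 stood at 8.33 to 9.39 in GFPko, 10.86 in GFPfoxp3 and 2.85 to 3.90 in CD25pos cells. The Foxp3 signal in GFPko cells is transcript of the locus, and its probe set checks nothing about the protein. Pde3b was at 7.54 in the H801A, 6.91 in the PDE3B and 7.43 in the empty vector array, so whether the vectors raised it is unverified, and the vector names are those of the labels. Of 3 annotated erythroid markers 0 were above the median on any array, and of 8 myeloid markers 2 to 4 were. The Actb control probe sets read its 3′ and its 5′ end, and the log2 gap between them grows as RNA becomes shorter. It was 5.87 to 6.38 in the 3 transduced arrays and 2.70 to 3.80 in the 7 sorted ones. The 2 sets of arrays came from separate experiments, so that the transduced arrays stand apart in RNA length and in origin at once.

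Promoter windows of 300 bases around the gene start, most of them upstream, from RefSeq on GRCm38.p6, were found for 26 of the 34 listed genes. Those of the 3 genes that passed a test below, and of Hmgcs1, are shown 5′ to 3′ on the strand of the gene. Mvd lies at chr8:122443373-122443672 (minus strand), Lss at chr10:76531355-76531654 (plus), Abca1 at chr4:53159846-53160145 (minus) and Hmgcs1 at chr13:119690101-119690400 (plus). Capitals mark matches, on either strand, to the sterol regulatory element TCACNCCAC, the E-box CACGTG, the NF-Y box CCAAT or the GC box GGGCGG.
Mvd: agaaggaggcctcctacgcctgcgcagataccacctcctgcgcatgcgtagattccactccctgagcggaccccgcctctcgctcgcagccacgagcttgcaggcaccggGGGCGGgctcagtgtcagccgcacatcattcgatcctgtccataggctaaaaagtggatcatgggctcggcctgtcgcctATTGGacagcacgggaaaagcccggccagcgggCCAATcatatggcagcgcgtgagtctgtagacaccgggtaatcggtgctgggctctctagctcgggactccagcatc
Lss: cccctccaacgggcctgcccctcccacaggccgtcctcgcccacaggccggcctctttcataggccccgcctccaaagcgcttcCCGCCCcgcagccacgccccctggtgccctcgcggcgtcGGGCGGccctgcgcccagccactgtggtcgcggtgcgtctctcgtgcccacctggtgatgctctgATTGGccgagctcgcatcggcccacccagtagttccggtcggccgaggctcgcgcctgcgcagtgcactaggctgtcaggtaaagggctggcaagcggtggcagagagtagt
Abca1: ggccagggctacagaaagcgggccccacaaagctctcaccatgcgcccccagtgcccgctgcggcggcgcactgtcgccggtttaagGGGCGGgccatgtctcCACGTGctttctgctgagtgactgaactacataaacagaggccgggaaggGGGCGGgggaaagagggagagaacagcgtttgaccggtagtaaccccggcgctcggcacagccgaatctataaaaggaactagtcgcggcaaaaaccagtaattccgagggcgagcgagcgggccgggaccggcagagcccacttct
Hmgcs1: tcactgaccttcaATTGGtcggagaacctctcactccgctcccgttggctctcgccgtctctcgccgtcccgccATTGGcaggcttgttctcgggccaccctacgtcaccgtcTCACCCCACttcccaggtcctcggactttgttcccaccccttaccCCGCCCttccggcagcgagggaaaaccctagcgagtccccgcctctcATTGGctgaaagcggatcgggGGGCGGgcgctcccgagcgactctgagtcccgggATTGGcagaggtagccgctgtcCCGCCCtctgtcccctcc

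Of these windows that of Hmgcs1 alone held the sterol regulatory element, 1 of 26 members against 1.24% of 32851 windows of all genes. Mvd and Lss, which differed in opposite directions below, held 2 and 1 NF-Y boxes and 1 and 2 GC boxes. The window of Abca1 held an E-box and 2 GC boxes and no NF-Y box. Over the members, CCAAT was in 20 of 26 windows, against 37.4% of all windows and 42.3% of protein-coding genes. GGGCGG was in 22 of 26, against 35.7% and 49.2%, and CACGTG in 6 of 26, against 7.15% and 8.91%. A match is a run of letters and no sign of binding, and matches to different motifs were counted separately.

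Most of the 32 genes varied little among the sorted cells. The range of a gene over the 7 sorted arrays had a median of 0.65 log2 units for the members and 0.69 for all kept genes, and 7 of 32 members spanned at least 1 unit, against 28.2% of all genes. Over all 10 arrays the median range was 1.15 for the members and 1.12 for all genes.

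**Figure D1:**
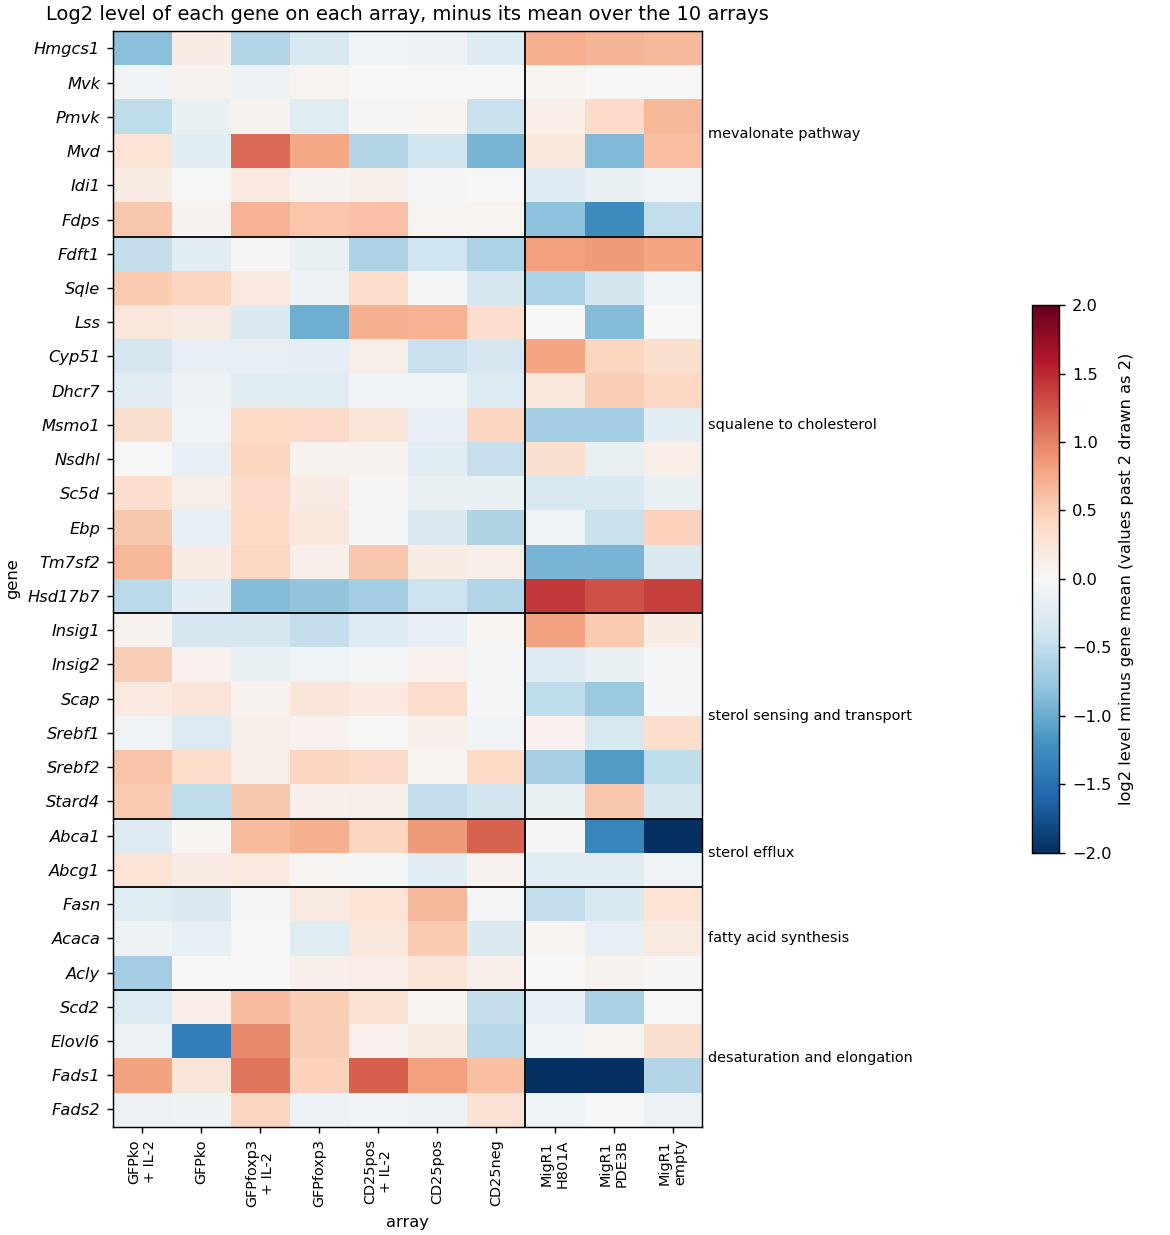
Log2 level of each of the 32 genes (rows, in blocks by role) on each of the 10 arrays (columns), minus the gene's mean over the arrays, with values past 2 drawn as 2. The vertical line separates the 7 sorted from the 3 transduced arrays, and Hsd17b7, at 8.06 to 8.20 on the transduced and 5.93 to 6.58 on the sorted arrays, shows the step between them.

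In the mevalonate pathway Mvd, the decarboxylase that makes isopentenyl diphosphate, varied most between sorted cells. Its log2 level was 5.95 in GFPko cells after IL-2 and 5.47 untreated, 6.82 in GFPfoxp3 cells after IL-2 and 6.45 untreated, 5.09 in CD25pos cells after IL-2 and 5.28 untreated, and 4.75 in CD25neg cells. On the transduced arrays Mvd was at 5.91 with H801A, 4.80 with PDE3B and 6.29 with the empty vector. GFPfoxp3 cells were thus the highest of the sorted populations in either state, GFPko cells came next, and CD25neg cells were lowest. Hmgcs1, the synthase of the step that opens the pathway, was lowest in GFPko cells after IL-2 at 9.13 and highest among sorted arrays in untreated GFPko cells at 10.10, with GFPfoxp3 at 9.37 and 9.65, CD25pos at 9.88 and 9.84 and CD25neg at 9.71. The kinase Mvk lay between 3.68 and 3.85 on all 10 arrays, close to the array medians of 3.04 to 3.22, so that little can be read from it. The second kinase, Pmvk, ranged over the sorted arrays from 6.63 to 7.20. Idi1, the isomerase of isopentenyl diphosphate, spanned 8.51 to 8.74, and Fdps, which builds farnesyl diphosphate, 5.35 to 5.99.

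Among the enzymes from squalene to cholesterol, Lss, the cyclase that folds oxidised squalene into lanosterol, differed most. Its level was 6.62 in GFPko cells after IL-2 and 6.57 untreated, 6.11 in GFPfoxp3 cells after IL-2 and 5.41 untreated, 7.11 in CD25pos cells after IL-2 and 7.09 untreated, and 6.73 in CD25neg cells. With H801A, PDE3B and the empty vector Lss stood at 6.38, 5.52 and 6.40. GFPfoxp3 cells were therefore the lowest sorted population for Lss and the highest for Mvd, 2 enzymes of the same route. The squalene synthase Fdft1 ranged over the sorted arrays from 8.29 to 8.94, the squalene epoxidase Sqle from 6.52 to 7.38, and the lanosterol demethylase Cyp51 from 6.65 to 7.21. Dhcr7, the reductase of 7-dehydrocholesterol, stayed within 7.72 to 7.94. The enzymes of C4 demethylation, Msmo1 and Nsdhl, ranged from 6.86 to 7.46 and from 6.79 to 7.67, and Hsd17b7 from 5.93 to 6.58. Ebp, a sterol isomerase, spanned 9.63 to 10.77, lowest in CD25neg and highest in GFPko cells after IL-2, while the desaturase Sc5d spanned 7.68 to 8.19 and the reductase Tm7sf2 5.58 to 6.14.

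The sterol sensors spanned less than 1 unit each. Over the sorted arrays Insig1 lay between 6.76 and 7.31, Insig2 between 7.71 and 8.34, Scap between 8.53 and 8.92, Srebf1 between 8.52 and 8.90 and Srebf2 between 6.94 and 7.48. Stard4, a carrier of cholesterol between membranes and itself a SREBP2 target, reached further. It stood at 8.78 in GFPko cells after IL-2 and 7.75 untreated, 8.80 in GFPfoxp3 cells after IL-2 and 8.36 untreated, 8.37 in CD25pos cells after IL-2 and 7.77 untreated, and 7.89 in CD25neg cells. The H801A, PDE3B and empty vector arrays gave 8.11, 8.80 and 7.91, so that the IL-2 array was the higher one of every population and the PDE3B array the highest of the transduced 3. The other bright Stard4 probe sets did not place the PDE3B array highest. In the same order they gave 7.34, 6.82 and 6.96, and 7.25, 7.37 and 7.49.

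Of the exporters, Abca1, which loads cholesterol onto apolipoprotein A-I, was low where GFPko cells were read. It was at 6.22 in GFPko cells after IL-2 and 6.51 untreated, 7.10 in GFPfoxp3 cells after IL-2 and 7.17 untreated, 6.90 in CD25pos cells after IL-2 and 7.32 untreated, and 7.65 in CD25neg cells. The H801A array held 6.44, the PDE3B array 5.16 and the empty vector array 4.22. Both GFPko arrays lay below the other 5 sorted arrays, and the 3 transduced arrays were well apart from each other. Abcg1, which exports sterol to HDL, stayed within 10.11 to 10.61 on the sorted arrays.

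The 3 fatty acid synthesis enzymes each had their highest level in untreated CD25pos cells. Fasn, fatty acid synthase, was there at 8.93 and otherwise at 7.98 to 8.55 over the sorted arrays. Acaca, the carboxylase that makes malonyl-CoA, was at 7.54 and otherwise at 6.74 to 7.25, and Acly, which splits citrate into acetyl-CoA, at 12.04 and otherwise at 11.10 to 11.92. The Acly value is that of a probe set that can cross-match. Another bright probe set of Acly was highest in GFPfoxp3 cells after IL-2 (9.45) and stood at 8.85 in untreated CD25pos cells. Elovl6, which extends palmitate to stearate, varied more. It was at 6.62 in GFPko cells after IL-2 and 5.37 untreated, 7.70 in GFPfoxp3 cells after IL-2 and 7.24 untreated, 6.83 in CD25pos cells after IL-2 and 6.92 untreated, and 6.18 in CD25neg cells. With H801A, PDE3B and the empty vector Elovl6 was at 6.68, 6.79 and 7.06. Untreated GFPko cells were the lowest of all 10 arrays for it and GFPfoxp3 cells the highest in both states. The next Elovl6 probe set did not repeat this. It was lowest in CD25neg cells (4.89, with 5.17 in untreated GFPko cells) and highest with the empty vector (6.65). On it untreated GFPfoxp3 cells (6.17) were level with untreated CD25pos cells (6.16). Fads1, the delta-5 desaturase of polyunsaturated fatty acids, stood at 5.96 in GFPko cells after IL-2 and 5.40 untreated, 6.23 in GFPfoxp3 cells after IL-2 and 5.62 untreated, 6.35 in CD25pos cells after IL-2 and 5.98 untreated, and 5.76 in CD25neg cells. It lay below the array median with H801A (3.14) and PDE3B (2.55) and was at 4.57 with the empty vector. The delta-6 desaturase Fads2 lay near the array medians throughout, at 3.04 to 3.58, and Scd2, a stearoyl-CoA desaturase, spanned 9.57 to 10.66 on the sorted arrays.

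**Figure D2:**
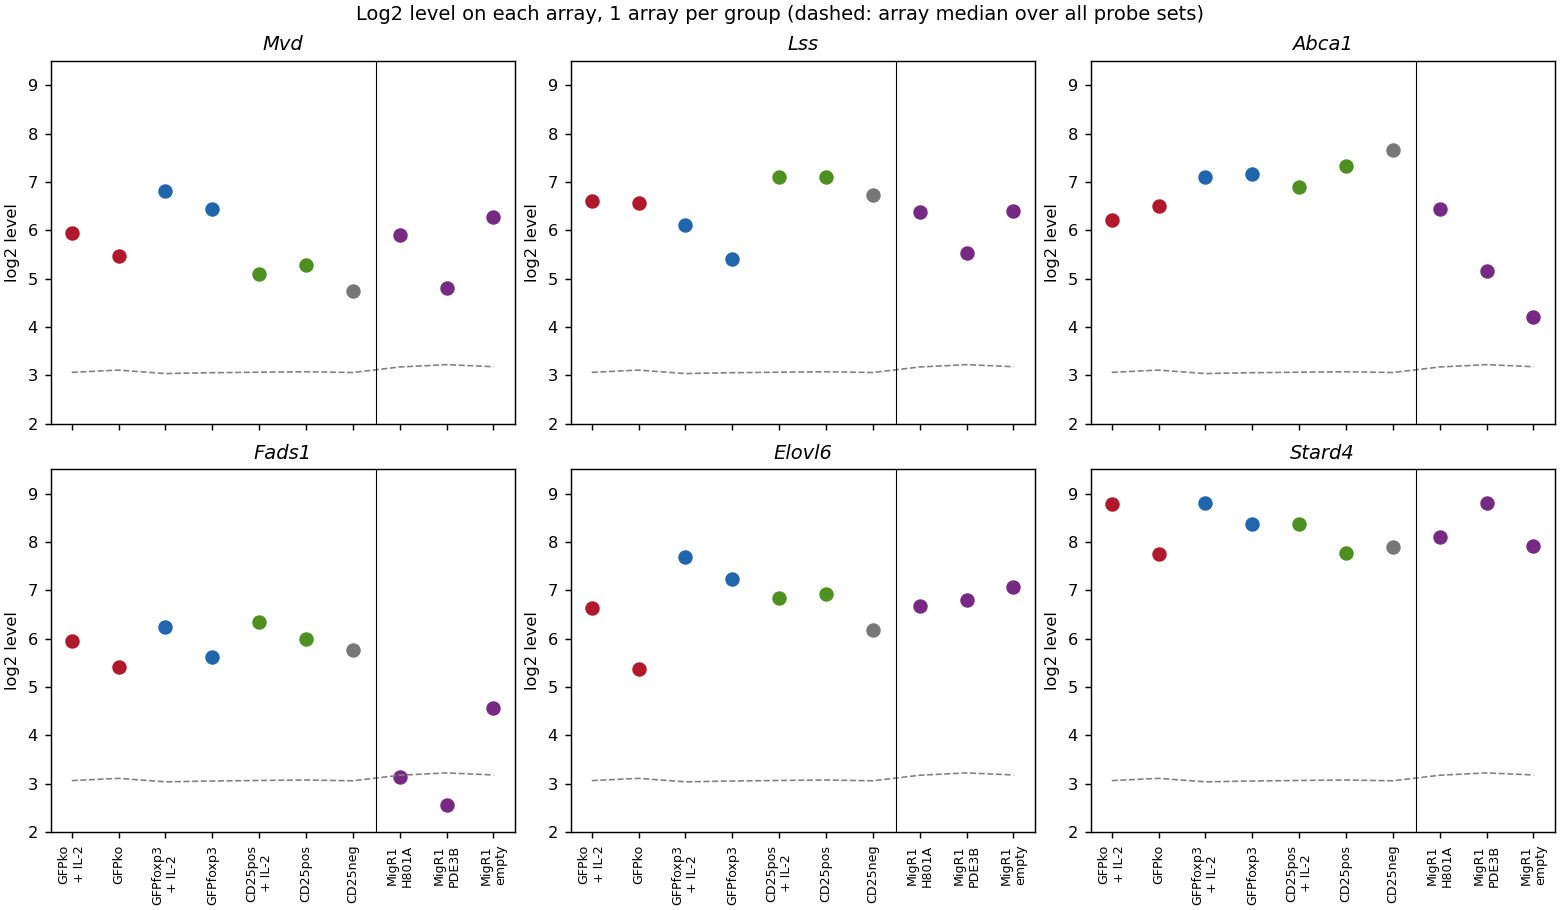
Log2 level on each of the 10 arrays (1 point per array, coloured by population) for the 6 genes that passed a test or differed at least 2-fold between single arrays, with the array median over all probe sets as a dashed line. Abca1 is below the other sorted cells on both GFPko arrays (6.22 and 6.51), and Fads1 is below the median on the H801A (3.14) and PDE3B (2.55) arrays.

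The question of what Foxp3 protein adds in cells that read its locus is addressed by GFPko against GFPfoxp3 cells. The populations were compared in an additive limma model of population and IL-2 over the 6 arrays of GFPko, GFPfoxp3 and CD25pos cells. Its error comes from how unlike the populations' differences after IL-2 were, and its p-values, adjusted over 11939 genes, measure that and not the spread between animals. Abca1 was lower in GFPko cells, at a mean of 6.37 against 7.14 in GFPfoxp3 cells, which is 1.71-fold (log2 difference -0.77, SE 0.126, adjusted p = 0.0452 by limma), lower in 2 of 2 pairs. It was the 1 call among 32 members, while 7.47% of all genes were called, 2.03% higher and 5.44% lower. Of the others 7 had an unadjusted p under 0.05 and were not called. With Abca1 these were 8 of 32 members, beside 3099 of 11939 genes at such a p. Elovl6 differed most, with a mean of 6.00 in GFPko and 7.47 in GFPfoxp3 cells (-1.47, SE 0.341, adjusted p = 0.0853). Its next probe set differed by -0.65. Mvd (-0.92, adjusted p = 0.0755) and Lss (0.83, adjusted p = 0.0984) missed the threshold in opposite directions, as did Hsd17b7 (0.45), Sqle (0.43), Nsdhl (-0.34) and Scd2 (-0.62), with adjusted p from 0.101 to 0.149. All 3 fatty acid synthesis genes and the 4 kept genes of desaturation and elongation had a negative difference, and none of these 7 was called. The Acaca difference was only -0.01, with 1 pair higher and 1 lower, and Fads2 was below the median on both GFPko arrays. Over all genes 6101 of 11939 differences were negative. Over the 32 members the median difference was -0.10, against -0.01 for all genes.

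Several measures moved with this comparison. GFPko arrays had an array median over the kept genes 0.15 lower than GFPfoxp3 arrays, and with arrays centred on that median 5 members were called, with Mvd, Abca1 and Elovl6 lower and Lss and Hsd17b7 higher, beside 1373 of 11939 genes. Centring adds the same 0.15 to every gene's difference, so that the members' median became 0.06 and that of all genes 0.14. Of all calls 242 were higher and 650 lower (27.1% higher), and 667 and 706 (48.6%) after centring. Of 11 markers of dividing cells 8 were called lower and 0 higher in GFPko cells, and all 11 differences were negative. Their mean levels were 8.24 and 6.56 in GFPko against 9.55 and 8.11 in GFPfoxp3 cells, after IL-2 and untreated. Of 4 kept B cell markers 2 were called lower, and 3 had negative differences. Their list averaged 4.28 and 4.21 in GFPko against 4.90 and 4.89 in GFPfoxp3 cells. Myeloid markers averaged 3.29 and 2.98 in GFPko against 2.65 and 2.59 in GFPfoxp3 cells, beside medians of 3.04 to 3.11 on these arrays. Of 5 kept 1 was called, Fcgr3, higher in GFPko cells, with Cd14, Cd68 and Itgam below the median on all arrays. The part of these in the result was not tested, and the mouse lines also differ in backcross number. The Abca1 call did not hold with any of the 6 arrays left out (adjusted p 0.0885 to 0.27), and with the mean of all its probe sets, the others below background, the difference was -0.24 (adjusted p = 0.183).

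GFPfoxp3 cells set against CD25pos cells of the same line showed a pair of calls in opposite directions. Mvd was 2.73-fold higher, at a mean of 6.63 in GFPfoxp3 and 5.18 in CD25pos cells (1.45, SE 0.200, adjusted p = 0.0293 by limma), and Lss 2.54-fold lower, at 5.76 against 7.10 (-1.34, SE 0.208, adjusted p = 0.0362). Each went the same way in 2 of 2 pairs, and the groups did not overlap. These 2 of 32 stand against 8.73% of all genes called, 5.28% higher and 3.45% lower. The second bright probe set of Mvd gave 6.75 and 5.89 in GFPfoxp3 cells against 5.01 and 4.86 in CD25pos cells, after IL-2 and untreated. Both genes were read by probe sets that can cross-match other transcripts, and with such probe sets left out the Lss difference was -0.05 (adjusted p = 0.857). With its probe sets averaged it was -0.46 (adjusted p = 0.0479). Neither call held with any of the 6 arrays left out, at adjusted p from 0.0505 to 0.186 for Mvd and from 0.0744 to 0.186 for Lss.

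Short of the threshold, Sc5d (0.32), Nsdhl (0.33), Fdft1 (0.44), Ebp (0.47) and Stard4 (0.51) were on the side of GFPfoxp3 cells and Fasn (-0.40) and Acaca (-0.50) on that of CD25pos cells, at adjusted p from 0.136 to 0.184. With Mvd and Lss, 9 of 32 members had an unadjusted p under 0.05, beside 3060 of 11939 genes. The members' median was 0.01, against -0.03 for all genes. Of 6 kept CD8 and NK cell markers 4 were called lower in GFPfoxp3 cells, and all 6 had negative differences. Their list averaged 3.45 and 3.29 against 5.38 and 5.58 in CD25pos cells, after IL-2 and untreated. Of 4 kept B cell markers 2 were called higher, and the other 2 had negative differences. Among the latter Cd22 was at 4.98 and 4.97 in GFPfoxp3 cells against 6.56 and 6.67 in CD25pos cells. The part of these markers in the Mvd and Lss differences was not tested.

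Against CD25pos cells, GFPko cells had 0 of 32 members called, while 3.48% of all genes were called. Of the members 7 had an unadjusted p under 0.05, beside 2421 of 11939 genes. Abca1 was again on the low side, at a mean of 6.37 in GFPko and 7.11 in CD25pos cells (-0.75, SE 0.126, adjusted p = 0.0663 by limma). All 3 fatty acid synthesis genes were among those 7, with Fasn at -0.73 (adjusted p = 0.0861), Acaca at -0.51 (0.183) and Acly at -0.53 (0.241), beside Fads1 at -0.49 (0.114). The Acly difference is that of its brightest probe set, which can cross-match, and was 0.00 without such probe sets. Abcg1 (0.35) and Sc5d (0.27) were on the high side. The 3 population comparisons use the same 6 arrays and are not independent of each other. All genes called here were 149 higher and 267 lower (35.8% higher), and 443 and 415 (51.6%) with arrays centred, where the array medians differed by -0.14. Of 11 markers of dividing cells 5 were called lower and 0 higher in GFPko cells, and all 11 differences were negative. Among 6 kept CD8 and NK cell markers 4 were called lower, and the other 2 had positive differences. Of 4 kept B cell markers 1 was called higher. The mouse lines also differ in backcross number. The part of these in the lipid gene differences was not tested.

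**Figure D3:**
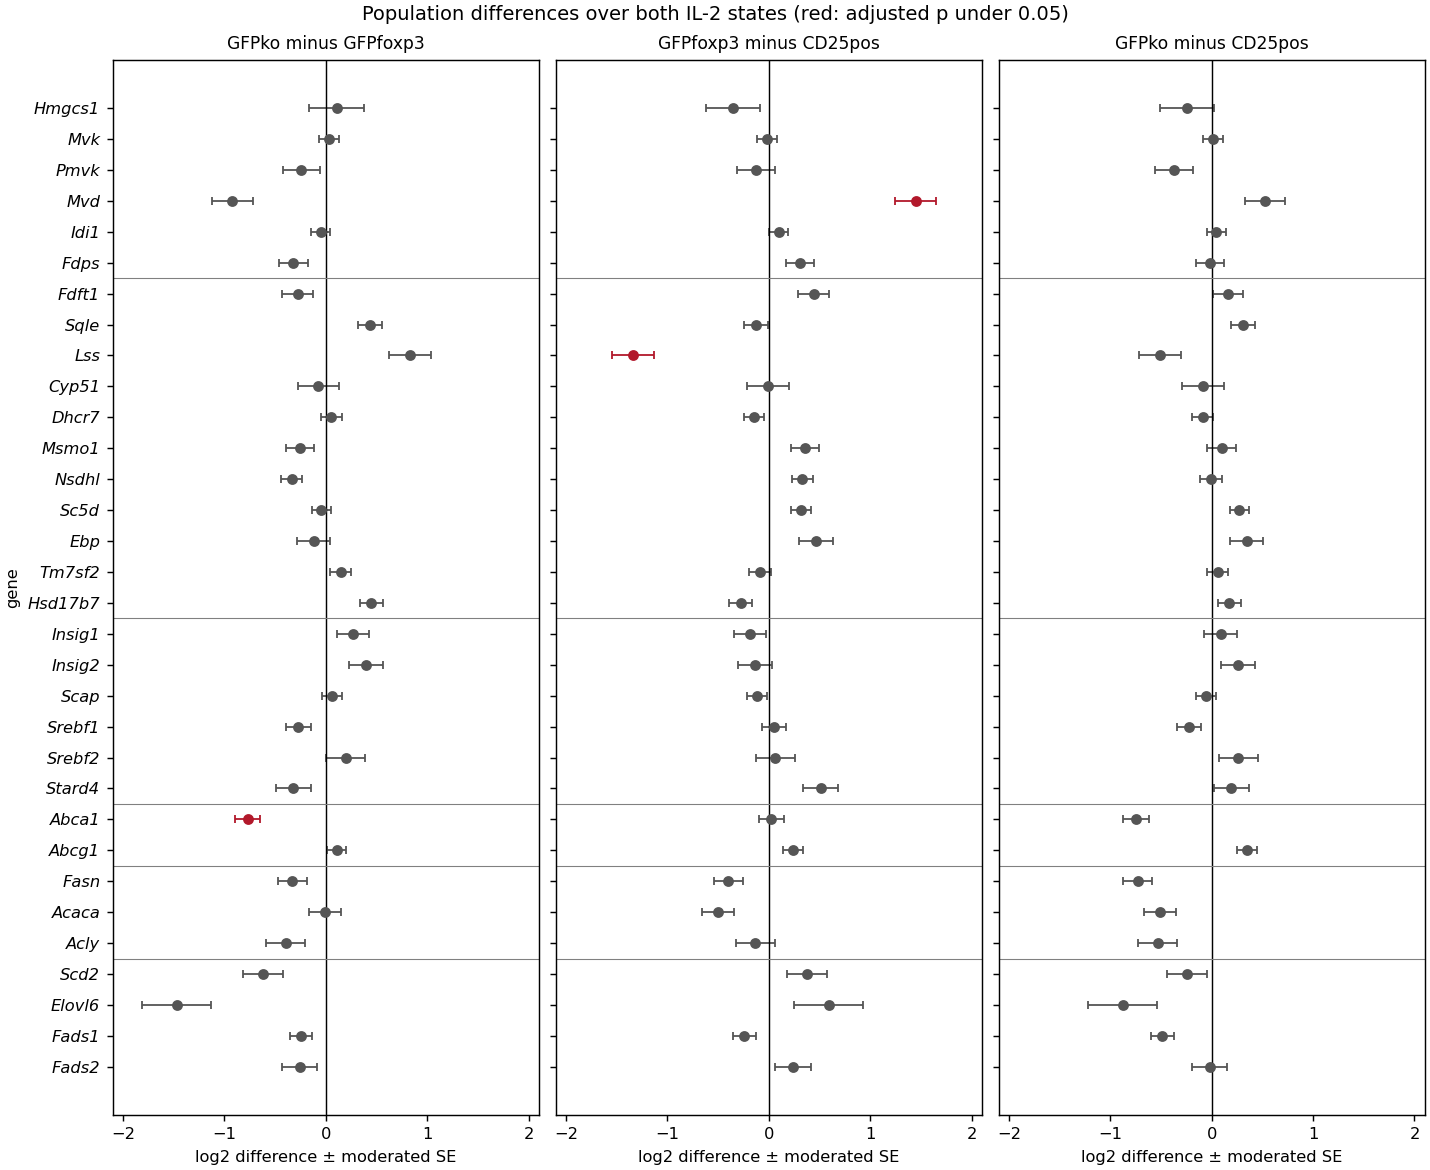
Log2 difference between populations over both IL-2 states for each of the 32 genes, with limma's moderated standard error as bars and adjusted p under 0.05 in red. The red points are Abca1 (-0.77) in GFPko minus GFPfoxp3 and Mvd (1.45) and Lss (-1.34) in GFPfoxp3 minus CD25pos, and none is red in GFPko minus CD25pos.

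IL-2 given to the mice was followed by small differences, most of them upward along the route from squalene to cholesterol. Of the 32 members 12 were higher after IL-2 in all 3 populations, against 17% of all genes, and 5 were lower in all 3, against 18.2%. The 12 were Idi1 and Fdps of the mevalonate pathway, Sqle, Lss, Msmo1, Nsdhl, Sc5d, Ebp and Tm7sf2 of the later route, Stard4, Abcg1 and Fads1. The 5 were Mvk, Hsd17b7, Scap, Abca1 and Acly. Of the 5 only Acly had further bright probe sets, one of which was higher after IL-2 in all 3 populations, by 0.76 in GFPko, 0.13 in GFPfoxp3 and 0.19 in CD25pos cells. A dimmer probe set of Mvk and one of Acly, each below the median on some arrays, were also higher in all 3 populations. The Mvk one differed by 0.22, 1.04 and 0.35 in the same order, and the Acly one by 1.36, 0.23 and 0.41. Of the 11 enzymes from squalene to cholesterol 7 in GFPko, 10 in GFPfoxp3 and 9 in CD25pos cells were higher, with medians of 0.10, 0.17 and 0.27. Of all 11939 genes 5801, 5964 and 5665 were higher in the same order, with medians of -0.01, -0.00 and -0.01. In GFPko cells the array median over the kept genes was itself 0.10 higher after IL-2. With arrays centred on it the enzymes' median there was -0.003 and that of all genes -0.11. These counts carry no test.

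In the model 0 of 32 members were called for IL-2, and 0.235% of all genes were called, all 28 of them higher. Of the members 6 had an unadjusted p under 0.05, beside 1261 of 11939 genes. Stard4 was the largest of the 6, at a mean of 8.65 after IL-2 and 7.96 untreated (0.69, SE 0.143, adjusted p = 0.297 by limma). Its 3 probe sets were each higher after IL-2 in every population. Fads1 averaged 6.18 after IL-2 and 5.67 untreated (0.51, SE 0.0915, adjusted p = 0.243), and Tm7sf2 6.02 and 5.61 (0.41, adjusted p = 0.297). Fdps (0.39), Ebp (0.38) and Nsdhl (0.27) had adjusted p from 0.419 to 0.47. Over the members 21 differences were positive, beside 5933 of 11939 over all genes. The members' median was 0.14, against -0.00 for all genes. Of the 12 genes higher in all populations 6 had other probe sets brighter than the array medians. All of these went the same way for 2 genes (Stard4 and Abcg1), and were mixed for the other 4.

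Differences after IL-2 in GFPko and CD25pos cells were furthest apart for Elovl6 and Hmgcs1, with 1 array per state and no test. Within GFPko cells Elovl6 was 2.38-fold and Stard4 2.04-fold higher after IL-2, 2 of 32 members at or above 2-fold against 4.92% of all genes. Elovl6 differed by 1.25 in GFPko, 0.46 in GFPfoxp3 and -0.09 in CD25pos cells, and its next probe set by 1.07, 0.37 and -0.07. Hmgcs1 differed by -0.98, -0.28 and 0.04 in the same order. None of 32 members reached 2-fold in GFPfoxp3 cells (1.95% of all genes) or in CD25pos cells (1.35%). The largest there were Lss in GFPfoxp3 cells (0.69) and Stard4 in CD25pos cells (0.60). The gap between the Actb ends was smaller on the IL-2 array of each population (2.76 against 3.69 untreated in GFPko, 2.70 against 3.07 in GFPfoxp3, 2.86 against 3.80 in CD25pos). Markers of dividing cells were higher on each (8.24 against 6.56, 9.55 against 8.11 and 9.19 against 7.76 in the same order), 4 of 11 being called. The part of either in the lipid genes was not tested.

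**Figure D4:**
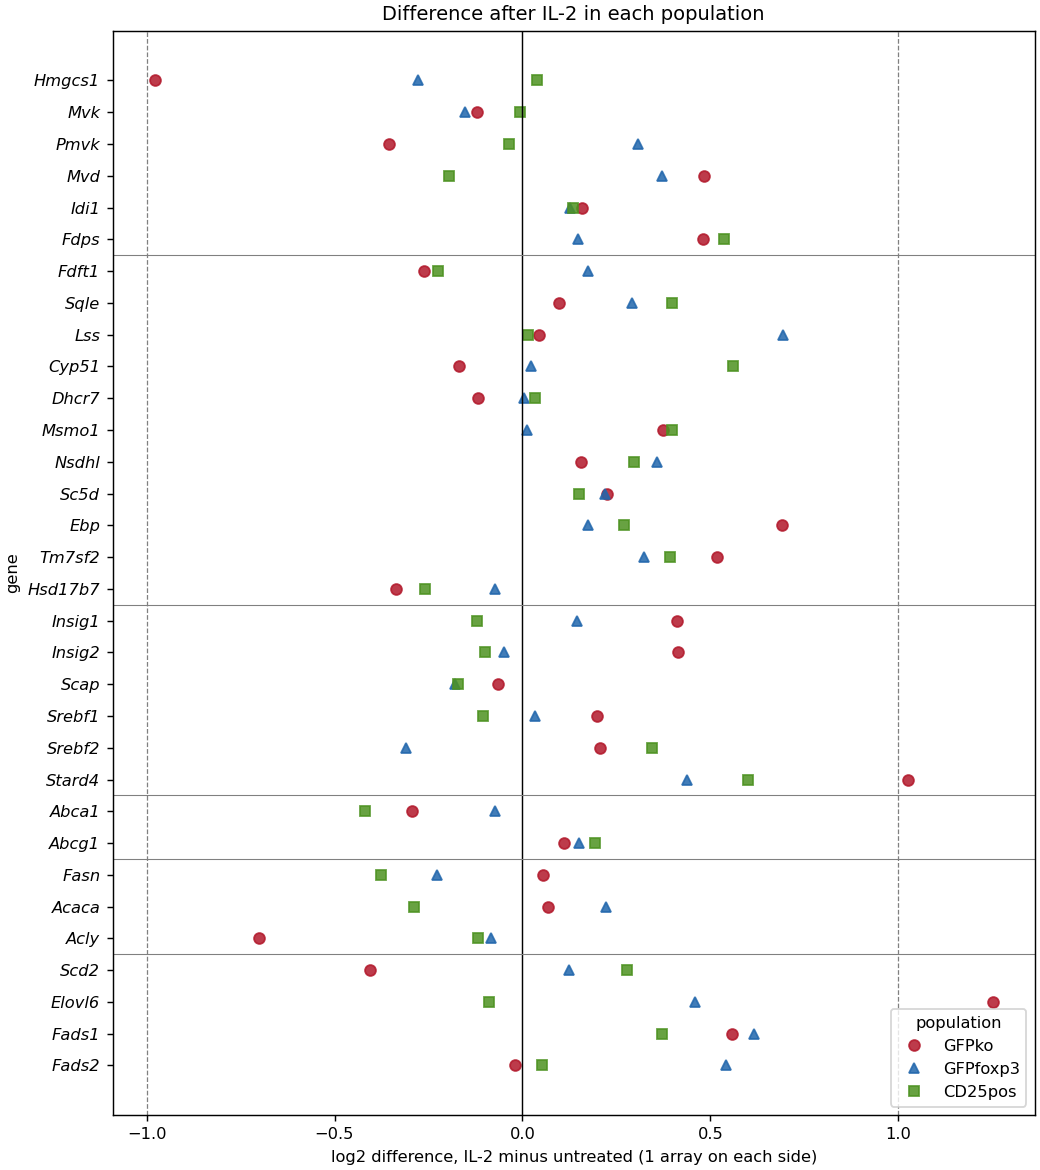
Log2 difference between the IL-2 and the untreated array in GFPko (circles), GFPfoxp3 (triangles) and CD25pos cells (squares) for each of the 32 genes, with dashed lines at a 2-fold difference. Stard4, Ebp, Tm7sf2 and Fads1 lie right of 0 in all 3 populations, and Elovl6 (1.25) and Hmgcs1 (-0.98) are far from 0 in GFPko cells.

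CD25neg cells, with no array after IL-2, were set against each untreated population, 1 array on each side and no test. GFPko cells had Abca1 2.21-fold lower (6.51 against 7.65 in CD25neg), 1 of 32 members past 2-fold against 6.73% of all genes. GFPfoxp3 cells had Mvd 3.24-fold higher (6.45 against 4.75) and Elovl6 2.08-fold higher (7.24 against 6.18) and Lss 2.50-fold lower (5.41 against 6.73). Scd2 was just short of 2-fold (10.54 against 9.57). These 3 of 32 compare with 10.9% of all genes. CD25pos cells had 0 of 32 past 2-fold, against 7.25% of all genes, with Acaca (0.80), Elovl6 (0.73) and Fasn (0.68) the farthest from 0. The members' medians against CD25neg were 0.09 in GFPko, 0.07 in GFPfoxp3 and 0.15 in CD25pos cells, and 0.00, -0.01 and 0.01 for all genes. Markers of dividing cells averaged 6.56, 8.11 and 7.76 in these populations and 5.25 in CD25neg cells, and their part was not tested. The comparisons share the CD25neg array.

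Between the transduced arrays the largest differences were in Abca1, Fads1 and Mvd. Against the empty vector, the H801A array had Abca1 4.66-fold higher (6.44 against 4.22) and Fads1 at least 2.64-fold lower (3.14, below the array median, against 4.57), 2 of 32 members against 2.29% of all genes. The PDE3B array had Fads1 at least 2.55-fold lower (2.55, below the array median, against 4.57) and Mvd 2.80-fold lower (4.80 against 6.29), 2 of 32 against 5.44%. The second bright probe set of Mvd went the other way, at 5.20 with PDE3B against 4.69 with the empty vector. Abca1 was 1.92-fold higher with PDE3B (5.16 against 4.22) and Ebp 1.87-fold lower (9.78 against 10.69). The bounds for Fads1 set its level with the empty vector against the median of the lower array.

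Set against PDE3B directly, the H801A array had Abca1 2.43-fold higher (6.44 against 5.16) and Mvd 2.16-fold higher (5.91 against 4.80), 2 of 32 against 3.04% of all genes. Lss went the same way short of 2-fold (6.38 against 5.52). The second bright probe set of Mvd did not: it was at 3.80 with H801A, 5.20 with PDE3B and 4.69 with the empty vector. The other probe sets of Abca1 were all below the array medians. Against the empty vector 22 of 32 members were lower with H801A (median -0.17) and 23 with PDE3B (-0.27), beside medians of -0.03 and -0.05 over all genes. Of all 11939 genes 7045 and 7105 were lower in the same order. The array median over the kept genes was itself 0.10 lower with H801A and 0.22 lower with PDE3B than with the empty vector, and with arrays centred on it the members' median for PDE3B was -0.06 and that of all genes 0.16. Markers of dividing cells averaged 8.50, 8.10 and 8.68 with H801A, PDE3B and the empty vector and the gap between the Actb ends was 5.95, 6.38 and 5.87. Their part was not tested.

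The transduced and the sorted arrays come from separate experiments, and the members' levels on them were set side by side. On the transduced arrays 7 of 32 members lay above all 7 sorted arrays, against 17.5% of all genes, and 8 lay below all of them, against 25.2%. Above were Hmgcs1, Pmvk, Fdft1, Cyp51, Dhcr7, Hsd17b7 and Insig1. Hsd17b7, a ketosteroid reductase of sterol synthesis, was at 8.06 to 8.20 on the transduced and 5.93 to 6.58 on the sorted arrays, and Fdft1 at 9.71 to 9.77 and 8.29 to 8.94. Both were read by probe sets that can cross-match, and the other Hsd17b7 probe sets were below the median on all arrays. Below were Idi1, Fdps, Msmo1, Sc5d, Tm7sf2, Scap, Srebf2 and Fads1, with Fdps at 4.04 to 4.81 and 5.35 to 5.99 and Srebf2 at 5.78 to 6.40 and 6.94 to 7.48.

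Other probe sets of the same genes often did not repeat this step. A second Fdft1 probe set ran from 5.58 to 6.65 on the transduced arrays against 6.21 to 7.61 on the sorted ones, and of 4 further bright Hmgcs1 probe sets 1 lay above, 2 below and 1 across the sorted range. Of the 7 genes above, 3 had another bright probe set and none had all in the same position, and of the 8 below 4 had one and Sc5d alone had it below as well. Experiment and RNA length cannot be told apart here.

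Other lists of lipid metabolism genes were read beside the same shares of all genes called. Of 12 kept genes of sterol uptake and other SREBP targets, Acss2, which makes acetyl-CoA from acetate, passed the test, at a mean of 8.22 in GFPko against 7.46 in GFPfoxp3 cells (0.76, adjusted p = 0.0499 by limma) and 7.46 in GFPfoxp3 against 8.22 in CD25pos cells (-0.77, adjusted p = 0.0446). Of 20 genes of fatty acid oxidation Cpt2, the inner carnitine palmitoyltransferase, passed in the same comparisons, lower in GFPko than in GFPfoxp3 cells (5.78 against 6.65, -0.87, adjusted p = 0.0437) and higher in GFPfoxp3 than in CD25pos cells (6.65 against 5.86, 0.79, adjusted p = 0.0482). That list had a median of -0.34 in GFPko minus GFPfoxp3, beside -0.01 for all genes. With arrays centred it was -0.19, beside 0.14. Uncentred, 16 of its 20 genes were negative, beside 6101 of 11939. Of 10 kept genes of cholesterol handling and the LXR axis, Mylip, the LXR-induced ligase that degrades lipoprotein receptors, passed in GFPfoxp3 minus CD25pos (9.44 against 10.23, -0.79, adjusted p = 0.0377). With each array left out in turn, calls over all genes fell to as few as 0 in both comparisons. The calls of Acss2, Cpt2 and Mylip thus did not hold throughout. The counts were 0 in these lists for GFPko minus CD25pos (2 of 20, 3 of 10 and 1 of 12 at an unadjusted p under 0.05 in the lists of oxidation, cholesterol handling and SREBP targets) and 0 for IL-2 (4, 0 and 3), while 3.48% and 0.235% of all genes were called and 2421 and 1261 of 11939 had an unadjusted p under 0.05.

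Between single arrays Fabp5, an intracellular fatty acid carrier, stood out against CD25neg cells (7.96). It was at 10.59 in GFPko, 10.39 in GFPfoxp3 and 10.94 in CD25pos cells and at 12.62, 13.02 and 12.81 with H801A, PDE3B and the empty vector. Lpcat3, an LXR-induced enzyme that remodels phospholipids, was at 6.46 with H801A, 5.23 with PDE3B and 4.87 with the empty vector. Hadha, the alpha subunit of the mitochondrial trifunctional protein, was at 5.50, 3.62 and 5.92 in the same order. Scarb1, the HDL receptor, was at 4.50 after IL-2 and 5.88 untreated in CD25pos cells, and at 4.14 in CD25neg cells. Acss2 (7.52 against 9.39) and Decr1 of the oxidation list (8.35 against 7.15) were past 2-fold in GFPfoxp3 against CD25neg cells. In GFPko cells Decr1 was past it after IL-2 (8.21 against 6.93 untreated). With PDE3B against the empty vector Acsl3 of the SREBP target list (4.54 against 3.24) and Cpt2 (4.89 against 6.01) were past it. Of all genes 10.9%, 4.92% and 5.44% were, in the same order.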

How the data were processed

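Log2 values of 45101 probe sets on 10 arrays were deposited, normalized together by the authors, per the series' design text. The scale was read from the values, and software, background correction and probe summary were not given in the sources used here. Per the labels' protocols, RNA was extracted with Stat-60 and amplified in 2 rounds with MessageAmp II, which shortens the product from its 5′ side. Gene names came from the platform annotation, updated by Entrez ID to GRCm38.p6 (34754 of 34958 with 1 gene; 932 had several and 9211 none). Those of 1 gene with at least 1 array at or above its own median were kept, and the highest mean probe set read each of 11939 genes.

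Limma 3.58.1 (R 4.3.3) fitted population and IL-2 as additive terms to 6 arrays (2 residual degrees of freedom, 2.23 prior degrees of freedom, prior SD 0.129), with Benjamini-Hochberg adjustment over all genes and calls under 0.05. The fit was tested on simulated data. Standard errors are moderated. The other 9 comparisons hold 1 array a side and are counts past 2-fold, with no test. The number of arrays limits the precision. Where the lower side was below its array median, a fold given as "at least" is the higher side over that median. All members are named, with every array's value for those called or past 2-fold, and at most 4 genes of each other list in a comparison. Members, lists and tests were chosen with earlier results of these data known. Alternatives were quantile normalization, centring, other filters, other probe set rules, an intensity trend with robust prior, no term for the other factor, leaving out each array, and folds of 1.5 and 3. Figures were drawn with matplotlib 3.10.9 in Python 3.11.15.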

Additional observations from a re-analysis of the deposited data

Results flagged for a closer look

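After IL-2, Elovl6 differed by 1.25 log2 units in GFPko cells and by -0.09 in CD25pos cells, opposite directions with 1.34 between them. Hmgcs1 differed by -0.98 in GFPko cells and by 0.04 in CD25pos cells, with -1.02 between them. Each side rests on 1 array per state, and the difference between the populations was not tested. The next Elovl6 probe set gave 1.07 and -0.07. Of the other bright Hmgcs1 probe sets, all 4 were lower after IL-2 in GFPko cells, by -0.24 to -0.50, and 3 of 4 were higher in CD25pos cells.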

How the results depend on the processing

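No paired analysis was possible because the labels give no replicate numbers and each group has 1 array. The model's own terms match arrays by population and by IL-2. Counts of members called in GFPko minus GFPfoxp3 (1) were 5 with arrays centred on the median of kept genes and 0 with quantile normalization, with no filter on dim genes, with a gene's probe sets averaged, with an intensity trend and robust prior, and with no term for the other factor. In GFPfoxp3 minus CD25pos the count (2) was 0 with no filter and 1 without probe sets that can cross-match. With each array left out in turn it was 0 in all 4 modelled contrasts, and the members' medians ranged from -0.11 to -0.06 (GFPko minus GFPfoxp3), 0.00 to 0.04 (GFPfoxp3 minus CD25pos), -0.03 to 0.04 (GFPko minus CD25pos) and 0.13 to 0.14 (IL-2). Calls over all genes (892, 1042, 416 and 28 in that order) ranged there from 0 to 408, from 0 to 836, and were 0 in the last 2. They were 382, 609, 33 and 0 with no filter. With centring they were 1373 in GFPko minus GFPfoxp3, 858 in GFPko minus CD25pos and 121 for IL-2. For IL-2 they were 53 with a filter on the mean and 0 with quantile normalization, without cross-matching probe sets, with the trend and with no population term.

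Centring moved the members' median to 0.0551 in GFPko minus GFPfoxp3 (-0.10), 0.13 in GFPko minus CD25pos (-0.01) and -0.0584 in PDE3B minus empty (-0.27). It adds one constant to every gene's difference in a comparison, 0.15, 0.14 and 0.22 here in size, so the medians of all genes moved alike, to 0.14, 0.13 and 0.16. Without cross-matching probe sets it was -0.14 in PDE3B minus empty and 0.19 for IL-2 in CD25pos cells (0.04), and Acly in GFPko minus CD25pos reversed to 0.0023, against -0.53, where another probe set was read. Members past 2-fold under centring were 4 in PDE3B minus empty (2) and 1 in H801A minus PDE3B (2). With probe sets averaged they were 0 for IL-2 in GFPko, GFPko minus CD25neg, H801A minus empty and H801A minus PDE3B, and 1 in GFPfoxp3 minus CD25neg and PDE3B minus empty. Without cross-matching probe sets they were 1 for IL-2 in GFPfoxp3, 2 in GFPko minus CD25neg, 1 in CD25pos minus CD25neg and 1 in PDE3B minus empty. At 1.5-fold they were 5, 2 and 1 for IL-2 in GFPko, GFPfoxp3 and CD25pos, 5, 5 and 4 for these against CD25neg, 12 in PDE3B minus empty, 5 in H801A minus empty and 5 in H801A minus PDE3B. At 3-fold they were 0 for IL-2 in GFPko, 0 in GFPko minus CD25neg, 1 in GFPfoxp3 minus CD25neg, 1 in PDE3B minus empty, 1 in H801A minus empty and 0 in H801A minus PDE3B. The cause of the shifts other than those under centring was not tested.

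In alternatives chosen after seeing the data, members higher after IL-2 in all 3 populations numbered 9 to 14 (12). Those lower numbered 3 with the mean of probe sets and 2 without cross-matching ones (5). Members with transduced arrays below the sorted ones numbered 4 with quantile normalization and 4 with centring (8), and those above 4 without cross-matching probe sets (7). Differences of genes near the array median, such as Mvk and Fads2, are limited by background.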
